A study of Homo sapiens with 5 samples.

Results

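The EBF and ONECUT genes are 7 transcription factor genes, EBF1, EBF2, EBF3, EBF4, ONECUT1, ONECUT2 and ONECUT3, taken by their symbols from the 37407 genes that the files list between them. All 7 were present in each of the 8 libraries. WA09 human embryonic stem cells were differentiated towards GnRH neurons by dual SMAD inhibition (dSMADi), then FGF8, then the Notch inhibitor DAPT, and their RNA was read by droplet single-cell sequencing. One run pooled 5 tagged conditions: untreated cells at D0, cells under dSMADi at D5 and D10, and cells that also received the Wnt inhibitor XAV939 at D5 and D10. D22, D24 and D26 of the protocol without XAV939 were 1 run each. All cells came from this 1 line. At D22, D24 and D26 the genes were also followed in DLX cells (at least 3 UMIs of DLX1, DLX2 and DLX5 together), in TBR1/PPP1R17 cells (at least 3 UMIs of TBR1 and PPP1R17 together and no DLX UMI) and in GNRH1-high cells (GNRH1 at or above 3000 counts per 1000000 UMIs of the cell, CPM).

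EBF proteins (early B cell factors, also called COE factors) are helix-loop-helix transcription factors that bind DNA as dimers. They are known from B cell development and, in the nervous system, from newborn neurons that leave the cell cycle, from olfactory receptor neurons and from Cajal-Retzius neurons. ONECUT proteins carry 1 cut domain and a homeodomain. ONECUT1 is also a liver and pancreas factor, and ONECUT factors act in early retinal cells, motor neurons and spinal interneurons.

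Levels are counts of unique molecular identifiers (UMIs) of a gene per 1000000 UMIs of a group of cells (CPM), with an exact Poisson 95% interval. Each condition was 1 culture without replicates, so no test was possible. The tagged conditions were mixed before library construction and split by tag, and each split is called a library here. The intervals take in counting error alone, and understate the error of a gene whose UMIs sit in a handful of cells. A member was counted as 2-fold higher or lower where the ratio was at least 2, its interval left out 1, and 1 of the groups had at least 1 CPM and 10 UMIs. Reads came from the 3′ ends of transcripts, so levels were compared for 1 gene at a time. The libraries held 1009 to 11056 cells, with a median of 7180 to 69455 UMIs per cell. D0 to D10 and D22 to D26 differ in run, depth and gene annotation, and no ratio was formed between them. A sum over cells does not separate fewer expressing cells from less RNA per cell. For some values the share of cells with a UMI is therefore given beside it. Each cell was first thinned to the same number of UMIs (10000 at D0 to D10 and 1500 at D22 to D26). Where no share is given, these are not told apart.

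The labelled stages were checked against markers before the members were read. The 5 pluripotency genes together fell from 3964 CPM at D0 to 271 at D5 dSMADi and 2.33 at D26, and the 6 neuron genes together were at 225 at D0, 92.1 at D5 dSMADi, 1839 at D22 and 9875 at D26. TUBB3 gave most of the D0 sum, at 204, and was at 28.5 at D22 and 49.4 at D26. Markers of other tissues that use EBF or ONECUT factors were low at D22 to D26. At D0 the B cell genes summed to 3.53 CPM, with CD79B at 2.56. Sums of the hepatic and mesenchyme genes in the tagged run are given further on. At D22 to D26 the 5 B cell genes summed to between 0.271 and 0.452 CPM, with MS4A1 at 0, although the IRX cells described further on held 8 UMIs of PAX5 at D24 (6.93 CPM). The 6 hepatic and endoderm genes summed to between 0.514 and 6.29, mostly TTR, with SOX17 at 0 on each of these days. The 6 mesenchyme genes summed to between 0.633 and 4.90.

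The promoters are shown because several members moved together. RefSeq promoter sequences on GRCh38.p14 were found for 5 of 7 members, all but EBF2 and ONECUT3. The 200 bases before the start were searched on both strands for an EBF site (CCCNNGGG), a ONECUT site (ATTGAT or ATTGAC) and an E-box (CAGNTG), which were held by 14.2%, 8.14% and 36.0% of 34780 promoter windows of the same length. EBF3 held 1 EBF site and EBF4 held 2, ONECUT2 held 1 E-box, and EBF1 and ONECUT1 held no match. The background windows were not matched for GC content. It was 79% for EBF3, 85% for EBF4, 71.5% for ONECUT2, 78% for ONECUT1 and 56% for EBF1. The 3 windows with a match are shown 5′ to 3′ on the strand of the gene, with the matches in capitals. Their positions are chr10:129964275-129964474 on the minus strand for EBF3, chr20:2692580-2692779 on the plus strand for EBF4 and chr18:57435174-57435373 on the plus strand for ONECUT2.
EBF3: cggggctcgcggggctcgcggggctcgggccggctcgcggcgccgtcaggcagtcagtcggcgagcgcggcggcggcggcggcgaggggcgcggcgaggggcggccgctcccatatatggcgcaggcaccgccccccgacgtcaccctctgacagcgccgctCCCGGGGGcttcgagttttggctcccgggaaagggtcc
EBF4: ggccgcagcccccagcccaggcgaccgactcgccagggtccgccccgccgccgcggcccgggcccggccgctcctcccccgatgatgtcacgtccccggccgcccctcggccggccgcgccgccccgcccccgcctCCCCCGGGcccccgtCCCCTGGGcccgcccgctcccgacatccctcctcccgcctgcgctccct
ONECUT2: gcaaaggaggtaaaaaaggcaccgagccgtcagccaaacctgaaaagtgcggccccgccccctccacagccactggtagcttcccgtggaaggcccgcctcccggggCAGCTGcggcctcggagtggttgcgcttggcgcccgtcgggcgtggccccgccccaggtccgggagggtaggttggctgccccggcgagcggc
The EBF3 match lay 38 to 31 bases before the RefSeq start, the EBF4 matches 64 to 57 and 49 to 42 bases before it, and the ONECUT2 E-box 93 to 88 bases before it. A match is a run of letters, not a site shown to be bound.

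EBF1, EBF2 and EBF3, the EBF genes best known from newborn neurons, were near the detection limit until D5, appeared at D10 and were at their highest between D22 and D24. EBF1 was at 0.184 CPM at D0, 0.125 at D5 dSMADi, 0.161 at D5 XAV939, 0.838 at D10 dSMADi and 1.91 at D10 XAV939. It then stood at 29.2 at D22, 44.01 at D24 and 40.1 at D26. For EBF1 the intervals of D0 and both D5 conditions overlapped, and those of the other 5 libraries did not overlap.

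EBF2 was at 0.0132 (1 UMI) at D0, 0.0627 at D5 dSMADi, 0.0461 at D5 XAV939, 0.521 at D10 dSMADi and 1.58 at D10 XAV939, then 22.5 at D22, 7.31 at D24 and 2.42 at D26. It was the EBF gene with its peak at D22 and a lower level on each later day. After thinning, 3.49% of D22, 0.966% of D24 and 0.326% of D26 cells had an EBF2 UMI (21.4%, 3.71% and 1.28% before thinning). EBF3 was at 0.158 at D0, 0.113 at D5 dSMADi, 0.242 at D5 XAV939, 1.45 at D10 dSMADi and 3.43 at D10 XAV939, then 25.1 at D22, 28.6 at D24 and 16.3 at D26. EBF3 thus had its highest value at D24 with D22 next, and its D26 value was the lowest of the 3 late days.

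EBF4, the fourth member of the family, followed another course. It was at 0.553 at D0, 1.14 at D5 dSMADi, 1.22 at D5 XAV939, 1.26 at D10 dSMADi and 2.93 at D10 XAV939, then 2.22 at D22, 5.97 at D24 and 11.8 at D26. EBF4 was thus detected from the start, with its highest level at D26. After thinning, 0.284% of D22 cells had an EBF4 UMI (2.94% before thinning, median 12179 UMIs per cell), against 0.297% of the dividing cells of that day (4.29% before thinning, median 15771 UMIs). No cell type known to lack EBF4 was measured, so the share that free RNA gives is unknown here. At D26 it was 1.69% (9.87% before thinning, median 8485 UMIs).

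ONECUT1, ONECUT2 and ONECUT3 were each at their highest at D26. ONECUT1 was at 6.88 CPM at D0, 0.289 at D5 dSMADi, 0.623 at D5 XAV939, 1.14 at D10 dSMADi and 2.88 at D10 XAV939, then 26.1 at D22, 35.7 at D24 and 89.0 at D26. It was the member with a clear level in undifferentiated cells: 522 UMIs lay in 347 of 1009 D0 cells, with at most 7 in a cell. After thinning, 6.84% of D0 cells had a ONECUT1 UMI (34.4% before thinning, median 69455 UMIs), against 0.372% at D5 dSMADi (0.827% before thinning, median 28789 UMIs).

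ONECUT2 was at 1.09 at D0, 0.351 at D5 dSMADi, 0.646 at D5 XAV939, 3.69 at D10 dSMADi and 7.40 at D10 XAV939, then 44.8 at D22, 69.7 at D24 and 158 at D26. ONECUT3 was at 0.0922 at D0, 0.100 at D5 dSMADi, 0.104 at D5 XAV939, 0.216 at D10 dSMADi and 0.603 at D10 XAV939, then 2.46 at D22, 12.3 at D24 and 34.8 at D26. For ONECUT3 the intervals of neighbouring values overlapped from D0 to D10 dSMADi, and the 3 late days stood apart. At D26, 12.2% of thinned cells had a ONECUT1 UMI, 19.0% a ONECUT2 UMI and 4.82% a ONECUT3 UMI (46.0%, 59.2% and 18.8% before thinning).

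On GRCh38 (GENCODE v44), EBF1 is at chr5:158695920-159099916, EBF2 at chr8:25841725-26045413, EBF3 at chr10:129835233-129973053 and EBF4 at chr20:2692780-2760108. ONECUT1 is at chr15:52755053-52791078, ONECUT2 at chr18:57435374-57491298 and ONECUT3 at chr19:1753506-1780988. Within these spans the files also count 2 long non-coding RNAs at EBF1 and 3 at EBF3, EBF3-AS1 among them, all on the opposite strand.

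**Figure D1:**
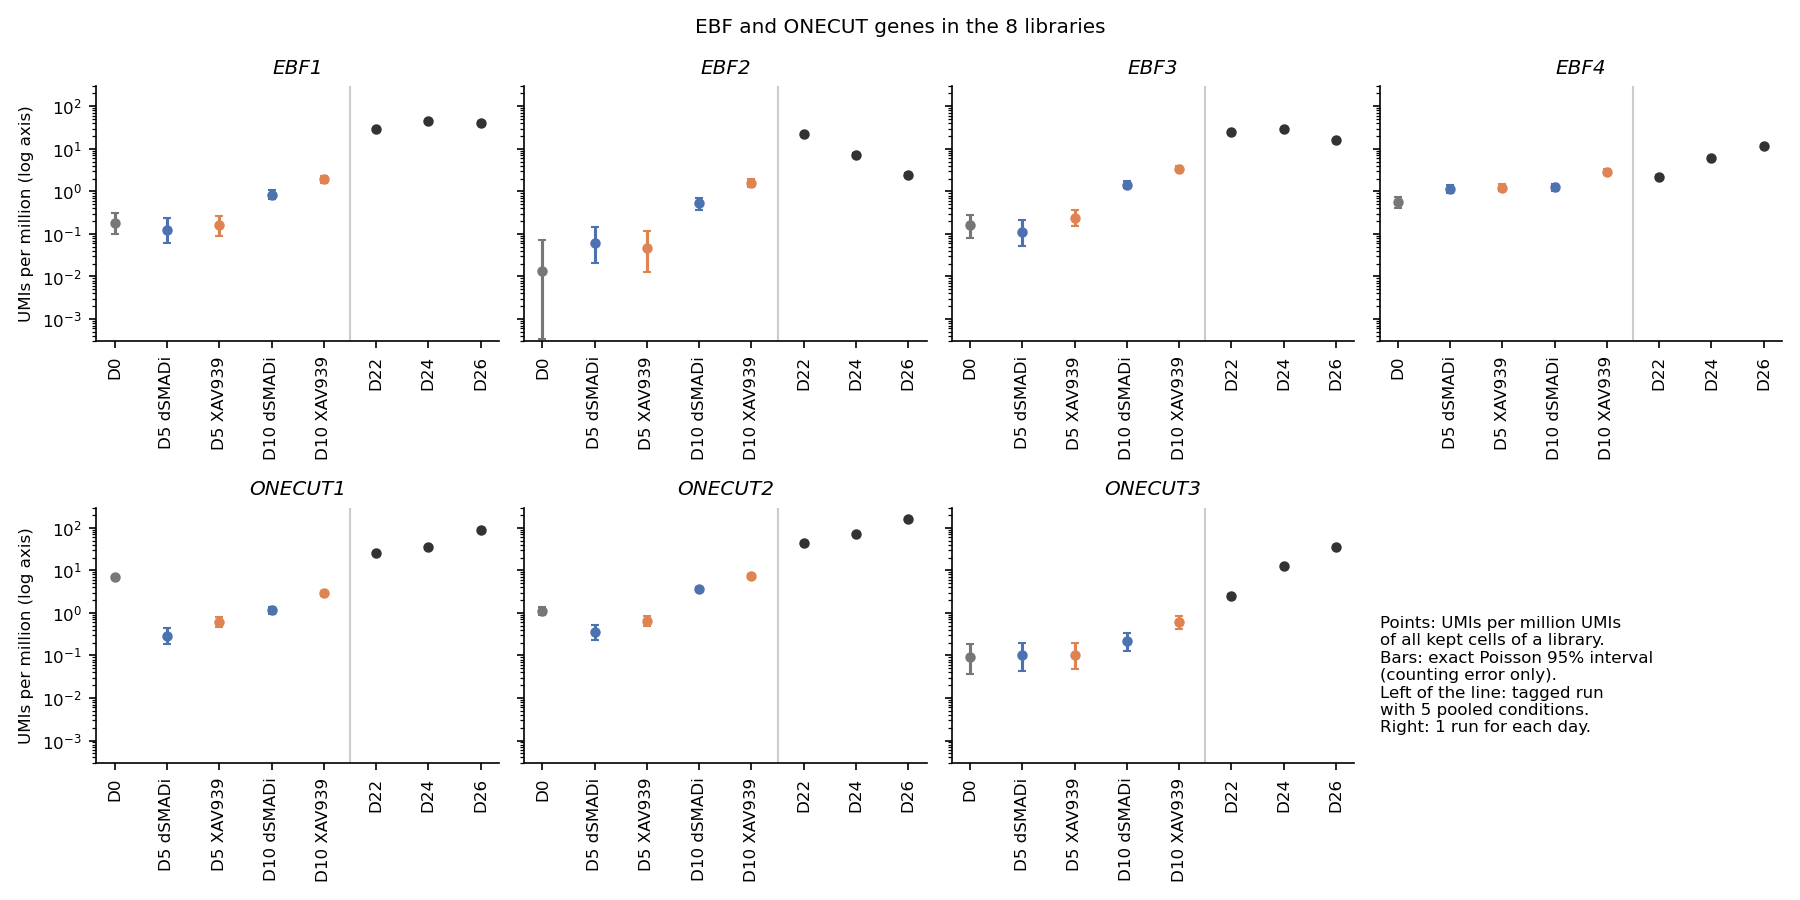
Level of each gene in the 8 libraries, as CPM on a log axis, with exact Poisson 95% intervals. Left of the line are the 5 conditions of the tagged run and right of it D22, D24 and D26. EBF2 falls from 22.5 to 2.42 between D22 and D26 while the 3 ONECUT genes rise, and ONECUT1 starts at 6.88 at D0.

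The first days of dSMADi were marked by lower ONECUT1. From D0 to D5 dSMADi, ONECUT1 was 23.8-fold lower (log2 ratio -4.57, interval -5.24 to -3.97) and ONECUT2 3.11-fold lower (log2 ratio -1.64, interval -2.311 to -1.004). The 6 hepatic and endoderm genes together went from 5.64 CPM at D0 to 0.138, with AFP, a fetal liver and yolk sac protein, at 5.10 and 0.0878 (log2 ratio -5.86, interval -7.18 to -4.80), FOXA2 at 0.514 and 0, and SOX17 at 1 UMI and 0. Their part in the ONECUT1 level was not tested. EBF4 was 2.06-fold higher (log2 ratio 1.05, interval 0.50 to 1.61). EBF1, EBF2, EBF3 and ONECUT3 had too few UMIs on both days for a call. Of the 3 members with enough UMIs, 1 was thus 2-fold higher, where 11.0% of 14575 genes were, and 2 were 2-fold lower, where 21.9% were. The median gene had a log2 ratio of -0.11.

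Between D5 and D10, 3 of 7 members rose under dSMADi and 6 of 7 under XAV939. With a stricter filter on cells 2 rose under dSMADi, with 3 members in place of 4 holding enough UMIs. Under dSMADi, EBF3 rose 12.8-fold (log2 ratio 3.68, interval 2.70 to 4.85), ONECUT2 10.5-fold (3.39, 2.83 to 4.01) and ONECUT1 3.96-fold (1.99, 1.31 to 2.71), where 9.01% of genes were 2-fold higher, and 0 members were 2-fold lower, against 2.57%. EBF1 and EBF2 had log2 ratios of 2.74 and 3.05 but stayed below 1 CPM, and EBF4 was at 1.10-fold (log2 ratio 0.14, interval -0.29 to 0.57). Under XAV939, 6 of 7 members were 2-fold higher, against 7.36% of genes, and 0 were lower, against 2.83%. EBF2 had the steepest rise there, 34.3-fold from 4 to 92 UMIs (log2 ratio 5.10, interval 3.70 to 7.01), an interval that takes in the ratio of EBF3 (21 to 199 UMIs). EBF4 had the smallest, 2.39-fold (log2 ratio 1.26, interval 0.90 to 1.62). ONECUT3 went from 9 to 35 UMIs, under the limit of 1 CPM. The 6 mesenchyme genes together went from 15.99 to 41.6 CPM under dSMADi, with COL1A1, COL1A2 and LUM 2-fold higher and PDGFRA 2-fold lower, and from 13.8 to 12.98 under XAV939, with LUM 2-fold higher (0.0577 to 3.31). Their part in the members' ratios was not tested. The median gene had a log2 ratio of 0.22 under dSMADi and 0.17 under XAV939.

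Whether Wnt inhibition changes the members was read at D5 and at D10. At D5 no member was 2-fold higher or lower, against 1.39% and 1.28% of genes. EBF4, the 1 member with enough UMIs, was at 1.07-fold (log2 ratio 0.10, interval -0.32 to 0.52). The others stayed below 1 CPM, with ONECUT1 at 54 UMIs under XAV939 and 23 under dSMADi (log2 ratio 1.11, interval 0.38 to 1.88).

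At D10, 6 of 7 members were 2-fold higher under XAV939, against 2.53% of genes, and 0 were lower, against 3.58%. EBF2 was 3.04-fold higher (log2 ratio 1.61, interval 1.06 to 2.17), ONECUT1 2.52-fold (1.33, 0.95 to 1.72), EBF3 2.37-fold (1.24, 0.90 to 1.59) and EBF4 2.33-fold (1.22, 0.85 to 1.59). EBF1 was 2.28-fold higher (1.19, 0.74 to 1.65) and ONECUT2 lay at the limit with 2.004-fold (log2 ratio 1.003, interval 0.79 to 1.22). Without the cells marked as doublets ONECUT2 was at a log2 ratio of 0.96. With the mean over cells in place of the sum, EBF1, EBF3 and ONECUT2 were at 0.90, 0.95 and 0.70, below the limit. ONECUT3 had 35 UMIs against 17 (log2 ratio 1.48, interval 0.61 to 2.41).

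At D10 few cells held a large share of the EBF1, EBF2, EBF3 and ONECUT UMIs. STMN2, a microtubule regulator of young neurons, was at or above 1000 CPM in 17 of 2416 D10 dSMADi cells (0.704%, exact binomial interval 0.410% to 1.12%) and in 66 of 2168 D10 XAV939 cells (3.04%, 2.36% to 3.86%). In D10 XAV939 these cells gave 2.83% of all UMIs but 60.4% of EBF1, 80.4% of EBF2, 86.4% of EBF3, 83.8% of ONECUT1, 77.4% of ONECUT2 and 85.7% of ONECUT3 UMIs. In D10 dSMADi they gave 0.446% of all UMIs but 83.3% of EBF1, 75.6% of EBF2, 79.8% of EBF3, 46.7% of ONECUT1, 72.9% of ONECUT2 and 82.4% of ONECUT3 UMIs. EBF4 was the exception. Only 1 of its 170 UMIs under XAV939 and 0 of its 99 UMIs under dSMADi lay in STMN2-high cells, the latter with an exact binomial upper bound of 3.66%.

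**Figure D2:**
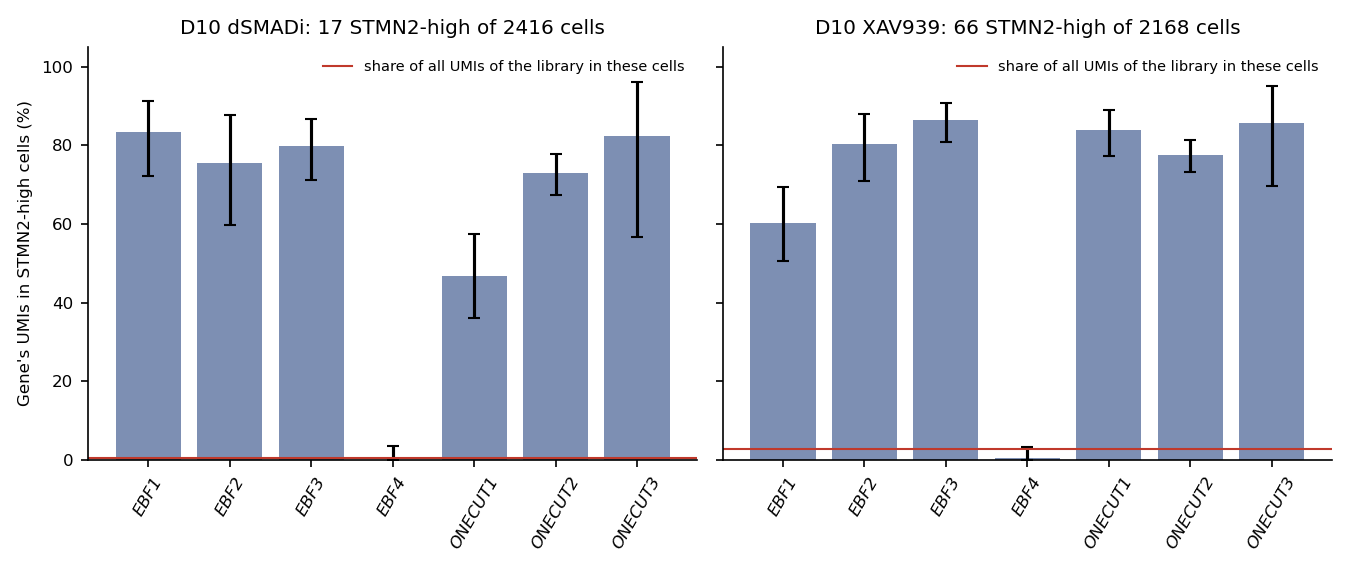
Share of each gene's UMIs that lay in STMN2-high cells at D10, in percent, with exact binomial 95% intervals, for dSMADi (left) and XAV939 (right). The red line is the share of all UMIs of the library in the same cells, 0.446% and 2.83%. EBF4 is at or under 0.588%, while the other 6 genes are between 46.7% and 86.4%.

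Within D10 XAV939, STMN2-high cells had 40.8 CPM of EBF1, 45.0 of EBF2, 104.6 of EBF3, 85.2 of ONECUT1, 203 of ONECUT2 and 18.3 of ONECUT3, against 0.7797, 0.319, 0.478, 0.478, 1.72 and 0.0886 in the other cells. These 6 members were 2-fold higher (log2 ratios 5.71 to 7.77), against 10.1% of genes, and 0 were lower, against 10.2%. EBF4 was at 0.608 against 2.99 (log2 ratio -2.30, interval -7.61 to 0.20).

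The 17 STMN2-high cells of D10 dSMADi were too few for a ratio. Their levels were 156 for EBF1, 88.2 for EBF2, 259 for EBF3, 119 for ONECUT1, 603 for ONECUT2 and 39.8 for ONECUT3. A single cell held 43 of the 212 ONECUT2 UMIs, so no difference from the 66 cells under XAV939 is read from them.

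Outside the STMN2-high cells, 1 of the 2 members with enough UMIs was 2-fold higher under XAV939, against 1.97% of genes, and 0 were lower, against 3.75%. That member was EBF4, at 2.99 against 1.26 (log2 ratio 1.25, interval 0.88 to 1.62). ONECUT2 was at 1.72 against 1.01 (log2 ratio 0.77, interval 0.33 to 1.22). EBF1 had 44 UMIs against 11 (log2 ratio 2.47, interval 1.498 to 3.58), and ONECUT1 had 27 against 48 (log2 ratio -0.36, interval -1.09 to 0.35), all below 1 CPM.

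At D22 the culture still held dividing cells and early neuronal precursors, and EBF1, EBF2 and EBF3 were higher in the precursors. Dividing cells (2357, with at least 3 UMIs of MKI67 and TOP2A together) had 11.2 CPM of EBF1, 11.5 of EBF2 and 8.17 of EBF3. The 3627 precursors (at least 3 UMIs of NEUROD4 and NHLH1 together, and not dividing) had 53.5, 43.0 and 48.3. The log2 ratios were 2.26 (2.12 to 2.41) for EBF1, 1.90 (1.75 to 2.04) for EBF2 and 2.56 (2.40 to 2.73) for EBF3.

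ONECUT2 was at 58.2 in precursors and 21.0 in dividing cells (log2 ratio 1.47, interval 1.36 to 1.58). ONECUT1 was at 23.7 and 17.2 (0.46, 0.33 to 0.60), ONECUT3 had 39 and 20 UMIs, and EBF4 was at 1.44 and 2.52 (-0.81, -1.27 to -0.36). So 4 of 7 members were 2-fold higher in precursors, against 7.10% of genes, and 0 were lower, against 9.99%. After thinning, 7.80% of precursors and 1.87% of dividing cells had an EBF1 UMI (41.3% and 13.9% before thinning, with medians of 12100 and 15771 UMIs).

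Over the last days EBF2 fell while the ONECUT genes rose. The dividing cells went from 2357 at D22 to 53 at D24 and 10 at D26, and the precursors from 3627 to 220 and 34. Within the precursors EBF2 did not fall: it was at 43.0, 71.8 and 172 CPM on these days, the last 2 values from 143 and 58 UMIs, and 22 of the 220 and 17 of the 34 precursors were also IRX cells, described further on. The part of these cell numbers in the fall of EBF2 over the whole library was not tested. From D22 to D24, EBF2 was 3.08-fold lower (log2 ratio -1.62, interval -1.76 to -1.49), ONECUT3 5.01-fold higher (2.32, 2.14 to 2.51) and EBF4 2.70-fold higher (1.43, 1.21 to 1.65). EBF1, EBF3, ONECUT1 and ONECUT2 had log2 ratios between 0.19 and 0.64. The count was 2 of 7 members higher, against 12.4% of genes, and 1 lower, against 16.0%.

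From D24 to D26, EBF2 was lower again, 3.02-fold (log2 ratio -1.59, interval -1.82 to -1.37). ONECUT3 was 2.82-fold higher (1.496, 1.39 to 1.60), ONECUT1 2.50-fold (1.32, 1.26 to 1.38) and ONECUT2 2.26-fold (1.18, 1.13 to 1.22). EBF4 lay just under the limit at 1.97-fold (0.98, 0.82 to 1.15), EBF3 had a log2 ratio of -0.81 (-0.91 to -0.72) and EBF1 one of -0.13 (-0.20 to -0.06). Thus 3 of 7 members were higher, against 9.29% of genes, and 1 was lower, against 4.26%. The median gene had a log2 ratio of 0.28 between these days, and relative to it ONECUT2 was at 0.89, under the limit, and EBF3 at -1.09, past it.

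The cell groups of the late days were unequal in size. DLX cells numbered 757 at D22, 356 at D24 and 1447 at D26, and TBR1/PPP1R17 cells 755, 5306 and 7319. GNRH1-high cells numbered 6, 345 and 999, of which 60.9% at D24 and 73.9% at D26 were also DLX cells. DLX factors mark GABAergic neurons and their progenitors, and TBR1 marks glutamatergic neurons. At D22 the 2 groups differed in stage as well: 27.7% of DLX cells were dividing, and the 6 neuron genes together were at 1191 CPM in DLX cells and 8695 in TBR1/PPP1R17 cells. At D26 these sums were 9332 and 10027. Of the D22 cells, 3.17% of DLX cells and 30.9% of TBR1/PPP1R17 cells were also precursors.

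**Figure D3:**
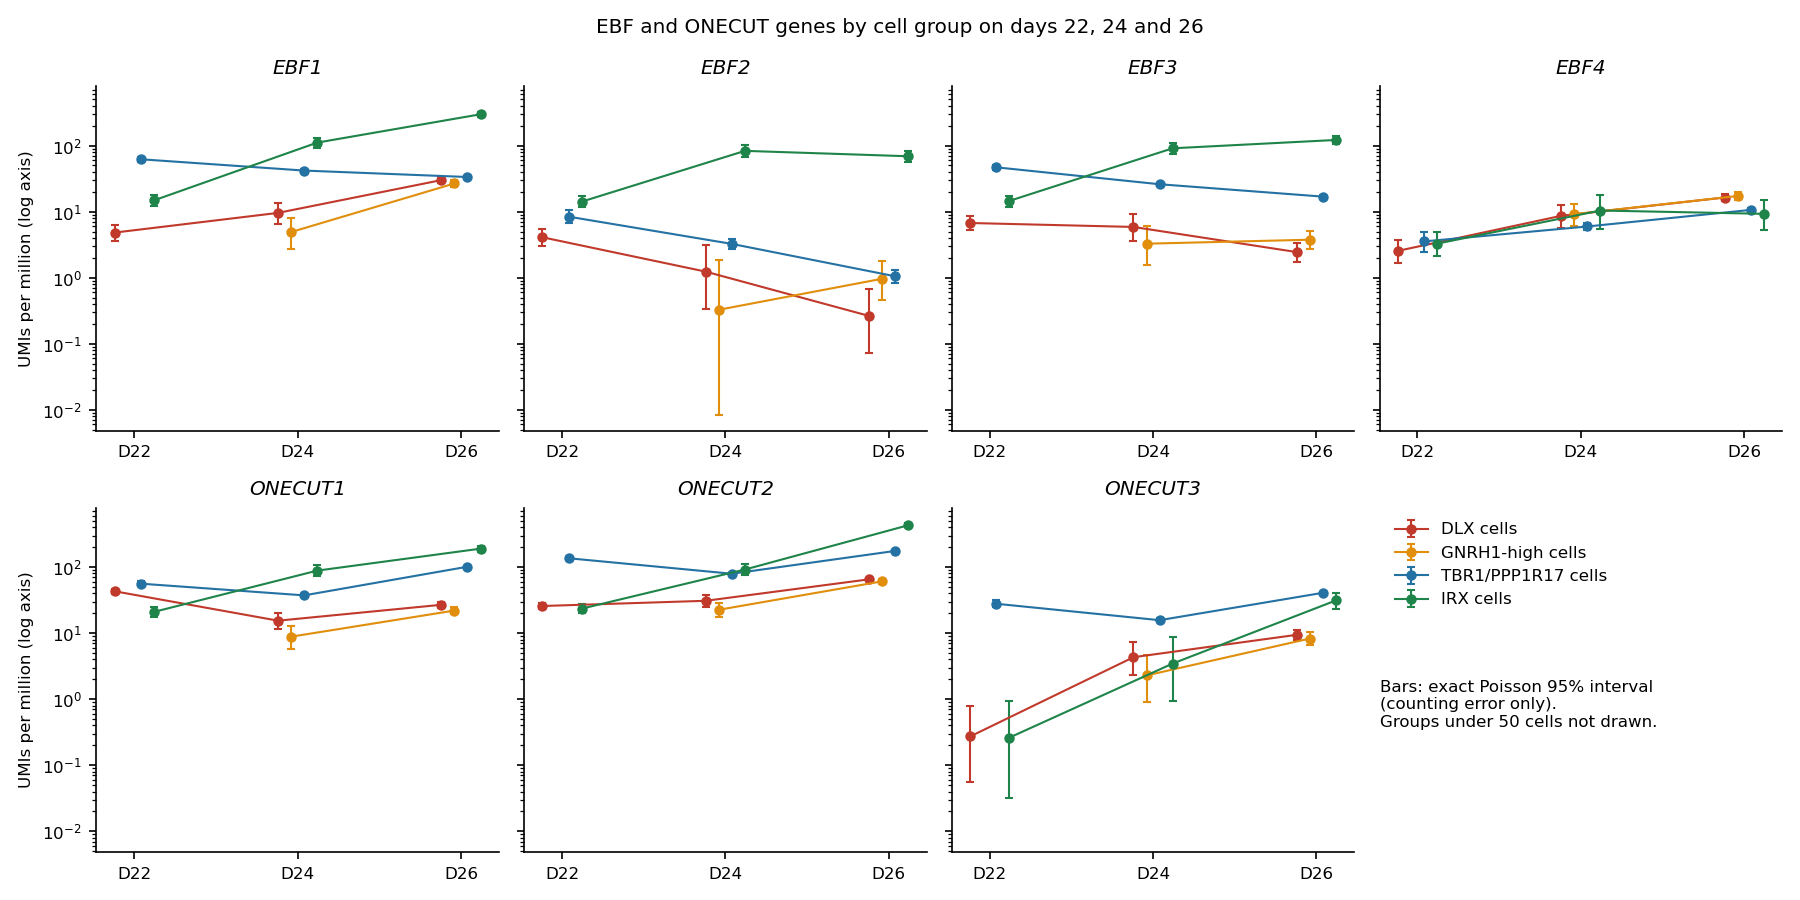
Level of each gene in DLX, GNRH1-high, TBR1/PPP1R17 and IRX cells at D22, D24 and D26, as CPM on a log axis, with exact Poisson 95% intervals. EBF3 and the ONECUT genes lie higher in TBR1/PPP1R17 than in DLX cells on each day, EBF1 reaches 29.999 in DLX and 33.4 in TBR1/PPP1R17 cells at D26, and EBF1, EBF2 and EBF3 are at their highest in IRX cells at D24 and D26.

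EBF and ONECUT genes were mostly higher in TBR1/PPP1R17 than in DLX cells. EBF3 was at 46.8, 25.96 and 16.9 CPM in TBR1/PPP1R17 cells at D22, D24 and D26, and at 6.73, 5.86 and 2.44 in DLX cells. The log2 ratios of EBF3 were 2.80 (2.44 to 3.17), 2.15 (1.497 to 2.88) and 2.79 (2.32 to 3.30). EBF3 thus stood apart between the groups on all 3 days. It fell with time in TBR1/PPP1R17 cells, and in DLX cells it had log2 ratios of -0.20 (-1.01 to 0.54) from D22 to D24 and -1.26 (-2.10 to -0.38) from D24 to D26.

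EBF1 was at 62.0, 41.8 and 33.4 in TBR1/PPP1R17 cells and at 4.82, 9.57 and 29.999 in DLX cells. Its log2 ratios were 3.69 (3.28 to 4.12), 2.13 (1.62 to 2.69) and 0.16 (0.01 to 0.30). The levels came together from both sides, down in TBR1/PPP1R17 cells and up in DLX cells. At D26 the 455 EBF1 UMIs of DLX cells lay in 199 of 1447 cells with up to 16 in a cell, and the 60 cells with at least 3 UMIs held 60% of them. In TBR1/PPP1R17 cells the 125 cells with at least 3 UMIs held 19.5% of 2260 UMIs.

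After thinning, 3.11% of D26 DLX cells and 4.82% of TBR1/PPP1R17 cells had an EBF1 UMI (13.8% and 22.6% before thinning, with medians of 9448 and 8631 UMIs). EBF2 was low in both groups: 8.40, 3.25 and 1.05 in TBR1/PPP1R17 cells and 4.09, 1.23 and 0.264 in DLX cells, the last 2 values from 4 UMIs each. Its log2 ratios were 1.04 (0.50 to 1.59), 1.39 (0.01 to 3.29) and 1.99 (0.57 to 3.91). EBF4 did not follow the other EBF genes, with 3.54, 5.96 and 10.6 in TBR1/PPP1R17 cells and 2.54, 8.64 and 16.4 in DLX cells. Its log2 ratios were 0.48 (-0.28 to 1.25), -0.54 (-1.10 to 0.08) and -0.62 (-0.83 to -0.41), and EBF4 rose with time in both groups.

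ONECUT1 was at 56.0, 37.3 and 101 CPM in TBR1/PPP1R17 cells and at 43.0, 15.4 and 26.8 in DLX cells. Its log2 ratios grew from 0.38 (0.20 to 0.56) at D22 to 1.27 (0.87 to 1.71) at D24 and 1.92 (1.77 to 2.06) at D26. At D22, 40.0% of DLX cells had a ONECUT1 UMI before thinning (4.76% after), against 44.4% (9.27% after) of TBR1/PPP1R17 cells. The share that free RNA gives is unknown for ONECUT1 too.

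ONECUT2 was at 136, 79.2 and 176 in TBR1/PPP1R17 cells and at 25.7, 30.9 and 65.2 in DLX cells, with log2 ratios of 2.40 (2.22 to 2.59), 1.36 (1.07 to 1.66) and 1.43 (1.33 to 1.52). ONECUT3 was at 27.8, 15.7 and 40.8 in TBR1/PPP1R17 cells and at 0.273 (3 UMIs), 4.32 and 9.43 in DLX cells. Its log2 ratios were 6.67 (5.11 to 8.96), 1.86 (1.10 to 2.74) and 2.11 (1.87 to 2.36). ONECUT3 thus showed the widest gap at D22, when DLX cells held almost none.

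At D22, 5 of 7 members were 2-fold higher in TBR1/PPP1R17 cells, against 14.9% of genes, and 0 lower, against 8.35%. At D24 the counts were 6 and 0, against 6.43% and 2.74%, and at D26 they were 5 and 0, against 5.02% and 3.89%. All 3 counts include EBF2, and without marked doublets they were 5, 5 and 4, EBF2 being called at D22 alone. With groups chosen from 1500 randomly drawn UMIs of each cell, EBF2 was called in 8 of 11 draws for D22, in 0 for D24 and in 3 for D26. The 6 at D24 became 2, EBF1 and EBF3, when GNRH1-high cells were left out of the DLX group, which left 146 cells. Without marked doublets, EBF1 at D22 had a log2 ratio of 4.42, and ONECUT3 had 2.49 at D24 and 2.90 at D26, with 69 in place of 143 ONECUT3 UMIs in DLX cells at D26.

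In GNRH1-high cells EBF1 and the ONECUT genes were lower than in the other DLX cells at D24, and by less at D26. At D24, EBF1 was at 4.90 in GNRH1-high cells and 16.7 in DLX cells that were not GNRH1-high, EBF3 at 3.27 and 10.7, ONECUT1 at 8.83 and 22.8, ONECUT2 at 22.6 and 41.1, and ONECUT3 at 2.29 and 8.37. These are 10 to 69 UMIs in 345 GNRH1-high cells for 4 of these genes and 7 for ONECUT3. EBF1, EBF3, ONECUT1 and ONECUT3 were 2-fold lower (log2 ratios -1.77, -1.70, -1.37 and -1.87), 4 of 7 against 1.89% of genes, and 0 were higher, against 1.17%. The upper bounds of these ratios lay between -0.76 and -0.37, and without marked doublets EBF3 (interval -2.90 to 0.03) and ONECUT3 (-5.08 to -0.36, with under 10 UMIs a group) were no longer called, while ONECUT2 was, at a log2 ratio of -1.01 (-1.60 to -0.40). With DLX cells chosen from 1500 randomly drawn UMIs of each cell, EBF1 and ONECUT1 were 2-fold lower in each of 11 draws, ONECUT3 in 7 and EBF3 in 1, and EBF3 ranged from -1.69 to 0.26.

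At D26 no member was 2-fold higher or lower, against 0.768% and 1.57% of genes. ONECUT1 was at 21.96 in GNRH1-high and 36.9 in other DLX cells (log2 ratio -0.75, interval -1.01 to -0.49), EBF1 at 26.7 and 39.0 (-0.55, -0.79 to -0.30), and ONECUT2 at 60.8 and 77.0 (-0.34, -0.51 to -0.17). ONECUT3 was at 8.28 and 11.4 (-0.47, -0.92 to -0.01) and EBF3 at 3.76 and 2.79 (0.43, -0.38 to 1.28). EBF4 was at 17.2 and 14.8 (0.22, -0.13 to 0.58). EBF2 had 10 UMIs in GNRH1-high cells and 0 in the other 709 DLX cells, where 3 UMIs would be 0.418 CPM. All DLX cells together held 4 EBF2 UMIs, so 6 of the 10 lay in GNRH1-high cells that were not DLX cells. Without marked doublets the 10 UMIs became 3, so no fold is given. At D22 only 6 cells were GNRH1-high, with 2 ONECUT1 UMIs, 1 ONECUT2 UMI and 0 of each EBF gene.

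IRX cells (at least 3 UMIs of IRX1, IRX2, IRX3 and IRX5 together and no DLX UMI) went from low to high levels of the EBF genes between D22 and D26. IRX genes encode homeodomain factors of more posterior neural tissue. These cells numbered 470 at D22, 134 at D24 and 155 at D26, and they were compared with TBR1/PPP1R17 cells that were not IRX cells. They differed in stage: at D22, 38.7% were dividing and the 6 neuron genes summed to 642 CPM, against 7480 at D24 and 9814 at D26. At D22, D24 and D26, 12.3%, 16.4% and 11.0% of IRX cells were also precursors, against 30.9%, 1.13% and 0.0273% of TBR1/PPP1R17 cells. Genes of neural progenitors differed at D26 too. The log2 ratios of IRX over TBR1/PPP1R17 cells were 5.64 (5.23 to 6.07) for SOX2, 3.18 for SOX1 and 1.95 for NES. VIM was at 0.66 and PAX6 at -1.70. The part of these shares and levels in the ratios below was not tested.

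EBF1 in IRX cells was at 14.8, 111 and 297 CPM at D22, D24 and D26, EBF2 at 14.1, 83.1 and 68.9, and EBF3 at 14.5, 90.9 and 122. At D22, EBF1 and EBF3 were below the TBR1/PPP1R17 cells (log2 ratios -2.08, -2.38 to -1.78, and -1.70, -2.01 to -1.39). EBF2 was above them, at 14.1 against 8.10 CPM (log2 ratio 0.80, 0.37 to 1.24), short of 2-fold. At D26 EBF1 and EBF3 were above them as well (3.20, 3.05 to 3.33, and 2.91, 2.69 to 3.12), and EBF2 was 96.3-fold higher (6.59, 6.095 to 7.105), with 119 UMIs in 155 IRX cells and 48 in 7294 others.

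At D24 the EBF2 ratio was already 27.7-fold (log2 4.79, interval 4.39 to 5.18). EBF4 in IRX cells was at 3.27, 10.4 and 9.26, and its intervals of the ratio included 0 on each day. ONECUT1 was at 20.9, 88.3 and 190, ONECUT2 at 23.4, 91.8 and 429, and ONECUT3 at 0.262 (2 UMIs), 3.46 (4 UMIs) and 31.3.

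At D22, 5 of 7 members were 2-fold lower in IRX cells, against 18.0% of genes, and 0 higher, against 12.4%. At D24, 4 were higher (EBF1, EBF2, EBF3, ONECUT1), against 6.17%, and ONECUT3 was lower (log2 ratio -2.18, interval -4.06 to -0.82), 1 of 7 against 7.01%. At D26, 4 were higher (EBF1, EBF2, EBF3, ONECUT2), against 4.95%, and 0 lower, against 5.19%. After thinning, 34.8% of D26 IRX cells had an EBF1 UMI and 48.4% a ONECUT2 UMI (78.1% and 86.5% before thinning), with 23.5% of the EBF1 UMIs in 10 cells. With the groups chosen from 1500 randomly drawn UMIs of each cell, 11 draws gave log2 ratios of 5.57 to 6.35 for EBF2 and 2.16 to 2.57 for EBF3 at D26. In these draws ONECUT1 at D24 lay between 0.64 and 1.12 and was 2-fold higher in 3 of 11, and ONECUT2 at D26 lay between 0.89 and 1.08 and was so in 6 of 11.

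Whether members lie in the same cells was read as the share of cells with a UMI of a second gene among cells with and without a UMI of the first, after thinning to 5000 UMIs per cell. As a background, the same was read from a second draw for each gene with a UMI in at least 1% of the cells. ONECUT genes went together in TBR1/PPP1R17 cells of D24 and D26 and in DLX cells of D26. In 6808 TBR1/PPP1R17 cells of D26, 57.3% of cells with a ONECUT1 UMI also had a ONECUT2 UMI (55.3% to 59.3%), against 47.5% of cells without (46.0% to 49.0%). Of all genes, 2.32% were found in this way in more of the cells with a ONECUT1 UMI, and 2.98% in more of those with a ONECUT2 UMI. A ONECUT3 UMI was found in 19.1% of cells with and 9.10% of cells without a ONECUT2 UMI. In 1353 DLX cells of D26 the contrast was wider, with a ONECUT2 UMI in 46.4% (36.8% to 56.1%) of the 110 cells with a ONECUT1 UMI and 19.5% (17.4% to 21.9%) of the rest. For all 3 ONECUT pairs the intervals stood apart in TBR1/PPP1R17 cells at D24 and D26 and in DLX cells at D26, where the shares of all genes were 1.58% for ONECUT1 and 2.65% for ONECUT2 in TBR1/PPP1R17 cells at D24, and 1.51% and 1.03% in DLX cells. The second draw gave the same 3 pairs in each of these groups. Without marked doublets it was 2 of 3 in the DLX cells. Other groups differed in the second draw. In TBR1/PPP1R17 cells of D22, a ONECUT3 UMI was found in 19.8% of cells with and 6.93% without a ONECUT2 UMI, and these intervals stood apart. Those of ONECUT1 then ONECUT2 (40.2% against 37.8%) and ONECUT1 with ONECUT3 overlapped. The same held in D22 precursors. In D26 IRX cells no ONECUT pair stood apart, and ONECUT1 then ONECUT2 was at 74.2% against 81.7%.

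For EBF genes fewer pairs stood apart. In D26 TBR1/PPP1R17 cells, cells with an EBF1 UMI more often had a ONECUT1 (43.8% against 35.6%), a ONECUT2 (60.02% against 49.6%) or a ONECUT3 UMI (20.7% against 13.2%), the 3 of 9 pairs of EBF1 to EBF3 with ONECUT genes whose intervals stood apart, in the second draw too. The shares of all genes were 1.32% for EBF1, 0.937% for EBF2 and 1.01% for EBF3. At D24, 0 of 9 such pairs did in either draw, against 1.13%, 1.62% and 1.10%. Before thinning the counts were 5 of 9 at D26 and 4 of 9 at D24. At D22, TBR1/PPP1R17 cells with an EBF3 UMI had a ONECUT2 UMI in fewer cases (23.1%, 16.6% to 30.8%) than those without (42.5%, 38.5% to 46.5%), against 0.627% of genes, but in the second draw these intervals overlapped, and those of EBF3 with ONECUT3 stood apart, which overlapped in the first. In DLX cells of D26, 0 of the 3 pairs of EBF1 with a ONECUT gene stood apart in the first draw, and EBF1 with ONECUT1 did in the second (16.3% against 8.21%), against 1.62% of genes. In D22 precursors EBF3 was found in 26.2% of cells with and 19.2% of cells without an EBF1 UMI, against 3.90% of genes, and the intervals stood apart in both draws. In the second draw EBF3 also stood apart with EBF2 in TBR1/PPP1R17 cells, at 42.9% of 28 cells against 18.1% at D22 and 24.2% of 62 against 10.6% at D24. It did so with EBF1 in D26 DLX cells (4.07% of 123 cells against 0.650%). In D26 IRX cells a ONECUT2 UMI was found in 87.5% of the 96 cells with an EBF1 UMI and 56.6% of the 53 without, against 0.224% of genes. Of 9 EBF and ONECUT pairs in IRX cells, 2 stood apart, and 1 did without marked doublets or in the second draw, where EBF2 with ONECUT1 did not, against 0.233% of genes for EBF2. No pair with EBF4 stood apart in the groups read after thinning, in either draw.

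**Figure D4:**
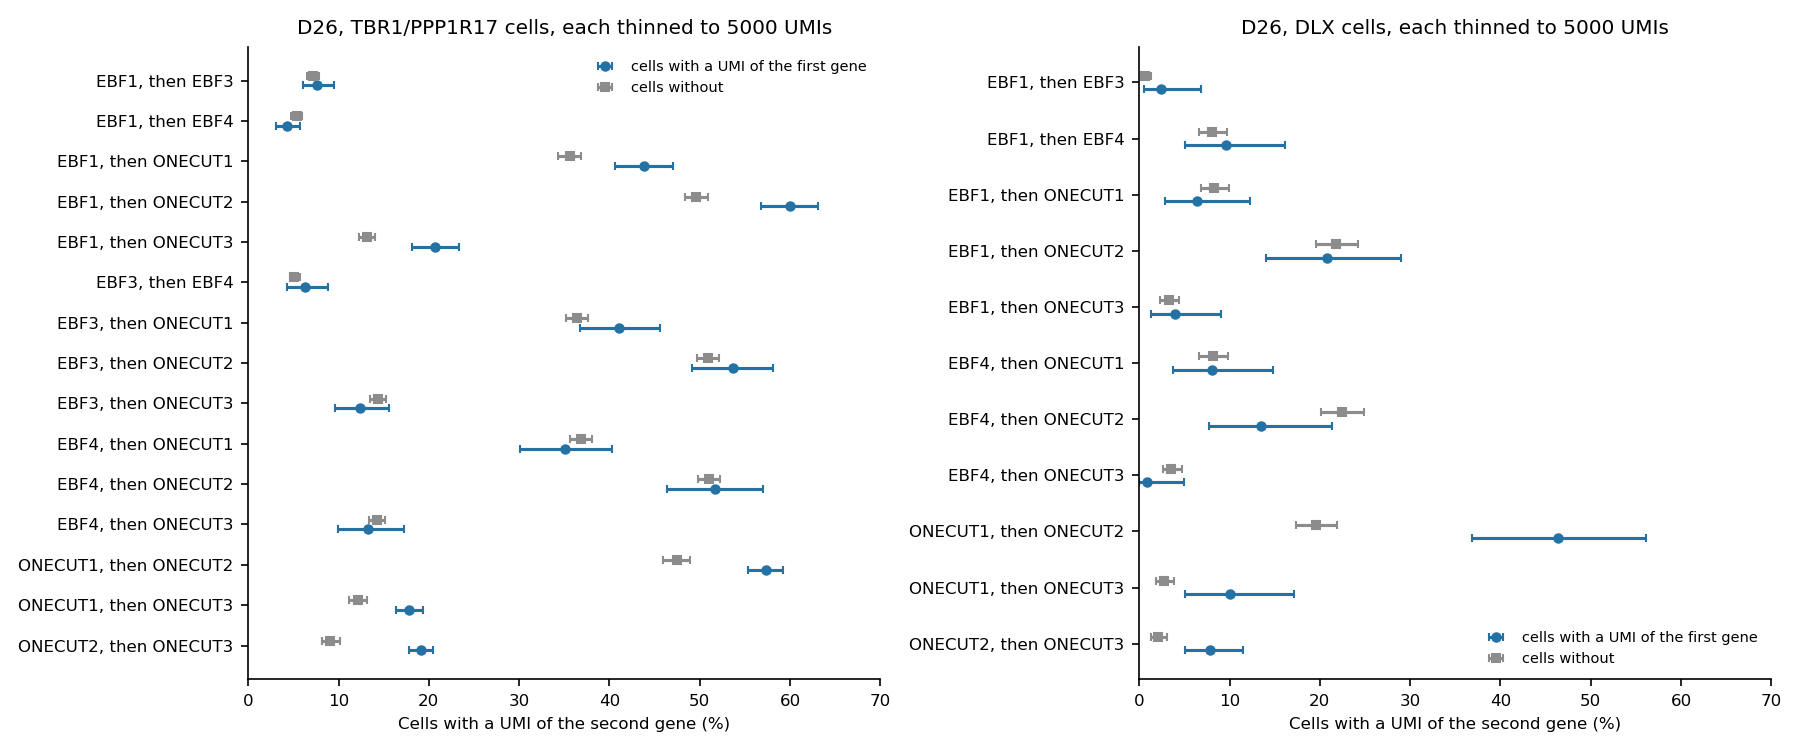
Share of D26 cells with a UMI of the second gene, in percent, among cells with (blue) and without (grey) a UMI of the first gene, with exact binomial 95% intervals, each cell thinned to 5000 UMIs and pairs with EBF2 left out. TBR1/PPP1R17 cells are on the left and DLX cells on the right. The ONECUT pairs stand apart in both panels, for example 46.4% against 19.5% for ONECUT1 then ONECUT2 in DLX cells, and EBF1 with the ONECUT genes stands apart in the left panel; the right panel has fewer cells (1353 against 6808) and wider intervals.

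Genes known beside these factors were read from lists of known genes. The zinc finger proteins ZNF423 and ZNF521, which bind EBF proteins, were both present throughout, ZNF423 at 30.8, 36.6 and 38.2 and ZNF521 at 99.6, 81.2 and 134 CPM at D22, D24 and D26. Neither was 2-fold higher or lower from D22 to D24 or from D24 to D26. From D0 to D5 dSMADi, ZNF521 went from 10.8 to 90.7 CPM (log2 ratio 3.07, interval 2.96 to 3.17) and ZNF423 from 21.5 to 7.12 (-1.59, -1.73 to -1.45), both past 2-fold. ZNF521 was also 2-fold higher in TBR1/PPP1R17 than in DLX cells at D26 (log2 ratio 1.003, 0.92 to 1.09), and 2-fold lower in IRX than in TBR1/PPP1R17 cells at D24 (-1.25). Among 12 proneural and early neuronal bHLH genes, of which several are known to act before EBF genes, NEUROD4 and NHLH1 define the precursors. Of the others, 6 of 7 with enough UMIs were 2-fold higher in D22 precursors than in dividing cells, where 7.10% of genes were, and 1 was lower, against 9.99%. Their median log2 ratio was 1.39, and that of all genes tested was 0.02. NEUROG1, a proneural factor, was at 773 in precursors and 343 in dividing cells, and NEUROD1, a differentiation factor, at 235 and 97.7. Of the whole list, 7 of 8 with enough UMIs were 2-fold lower from D24 to D26, against 4.26% of genes, NEUROG1 going from 46.5 to 1.38.

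In IRX cells of D26, 7 of 8 genes of this list were 2-fold higher than in TBR1/PPP1R17 cells, against 4.95%, NEUROD1 being at 91.4 and 15.3. In STMN2-high cells of D10 XAV939, 8 of 8 were 2-fold higher, against 10.1% of genes, with NHLH1 at 591 and 2.22 in the other cells.

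Of 7 genes known from Cajal-Retzius neurons, EBF genes left out, all 5 with enough UMIs were 2-fold higher in TBR1/PPP1R17 than in DLX cells at D26, against 5.02% of genes. RELN, the secreted glycoprotein of these neurons, was at 233 and 93.6 and LHX1, a LIM homeodomain factor, at 194 and 28.7, but TP73, their defining factor, was at 0.222 and 0.0659. At D22, NDNF of this list was 2-fold lower in TBR1/PPP1R17 cells (log2 ratio -2.43, interval -4.42 to -0.89), where 8.35% of genes were. TP73 (4.48, 2.53 to 7.57), CXCR4 (1.66, 0.25 to 3.29), RELN, LHX1, LHX5 and CALB2 were 2-fold higher that day, where 14.9% of genes were. Of 9 olfactory sensory neuron genes, 2 of 6 with enough UMIs were higher and 1 lower in TBR1/PPP1R17 cells at D26, against 5.02% and 3.89% of genes. The higher ones were LHX2, at 169 and 43.7, and EMX2, at 519 and 89.5, both homeodomain factors, and GNAL, a G protein alpha subunit, was the lower one. At D22, 4 of 6 were higher and 0 lower, against 14.9% and 8.35%. At D24, 3 of 6 were higher, against 6.43% of genes, and 1 lower, against 2.74%, with LHX2 at 414 and 58.01, EMX2 at 674 and 91.02 and GNG8, a G protein subunit of immature olfactory neurons, at 384 and 96.9. OMP and CNGA2, which define the mature cells, were at 0 on all 3 late days.

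Of 11 factors known beside ONECUT genes in retina and spinal cord, 1 of 4 was 2-fold higher and 1 lower in TBR1/PPP1R17 cells at D26, LHX1 being the higher one and ISL1, a motor neuron and GABAergic factor, being at 1.67 and 110. The shares of all genes were 5.02% and 3.89%. At D22, ISL1 (log2 ratio -4.81), FOXN4 (-2.85), PROX1 (-1.27) and TFAP2B (upper bound -2.07) of this list were 2-fold lower, where 8.35% of genes were. LHX1 was 2-fold higher that day (4.52), where 14.9% of genes were, and TFAP2A was at 0.18. In IRX cells of D26, 5 of 6 were 2-fold higher than in TBR1/PPP1R17 cells, against 4.95% of genes, among them TFAP2A at 58.5 and 0.849 and POU4F1 at 28.9 and 0.268. The lists overlap in LHX1, and these counts are descriptions of single libraries.

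Over 20 groups of cells that share no cell, the genes most like each member were taken by the correlation of the log2 of the level plus 1 among 8983 genes. Run, gene annotation, depth, stage and day differ between these groups, so r is a description. EBF1 was most like SYT4 (r = 0.963), a synaptotagmin, and EBF3 most like SYT4 (0.930) and NEUROD1 (0.929). EBF2 was most like BHLHE22 (0.942) and NEUROD1 (0.915), both bHLH factors. EBF4 was most like EXOG (0.955), NFIL3 and ZNF711. ONECUT1 was most like SYT4 (0.942), ONECUT2 like ARHGEF10L (0.963), KALRN and ELAVL4, and ONECUT3 like NRSN1 (0.966), BMP3 and NCS1. Between members, EBF1 and ONECUT2 were at r = 0.949, ONECUT1 and ONECUT2 at 0.924, EBF1 and EBF3 at 0.923, and EBF2 and EBF4 at 0.107.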

How the data were processed

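The authors deposited UMI counts per gene and cell barcode, made with Cell Ranger on GRCh38. The file headers name version 6.1.2 for the tagged run and 3.1.0 for D22, D24 and D26, and the submitters' processing notes name 3.1. The tagged run came split by tag, with 95.1% to 95.6% of tag UMIs on the tag that the labels give for each condition. The files list 36601 genes for the tagged run and 33538 for D22 to D26.

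Cells were kept with at least 30000 UMIs and 5000 genes at D0, 10000 and 3000 at D5 and D10, and 1500 and 1000 at D22 to D26. Mitochondrial UMIs were limited to 10% in the tagged run and 20% later, and complexity (log genes over log UMIs) to at least 0.78 at D5, 0.82 to 0.9 at D10 and at least 0.82 later. The stated complexity limit for D0 would leave 1 cell and was not applied. This kept 1009 to 11056 cells and 58073098 to 130440502 UMIs per library. Doublets were marked by a nearest-neighbour score against simulated doublets (at least 0.25, 1.95% to 5.45% of cells). They were kept in the values and left out in an alternative.

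UMIs were summed per library and cell group, with exact Poisson, binomial and ratio intervals at 95%. Ratios were formed within the tagged run or among D22 to D26, for groups of at least 50 cells. The members are the 7 genes of the rule and each is described. The 3 genes most like each member were taken by Pearson's r among genes reaching 20 CPM. Results of some single genes are not reported here. The members, gene lists and cell groups were chosen with earlier results of these data known. Ratios and intervals were tested on simulated data. There were 10 alternatives. Work was done in Python 3.11.15 with NumPy 2.4.6, SciPy 1.17.1, pandas 2.3.3, scikit-learn 1.9.0 and matplotlib 3.10.9.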

Additional observations from a re-analysis of the deposited data

Results flagged for a closer look

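Some ratios of 1 gene went in opposite directions in cell groups or on days, with intervals on both sides of 0. Each rests on 1 library a day, and the difference between the ratios was not tested.

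From D22 to D24 the log2 ratio of EBF1 was 0.99 in DLX cells and 2.91 in IRX cells but -0.57 in TBR1/PPP1R17 cells. From D24 to D26 it was 1.65 in DLX cells and 1.42 in IRX cells but -0.32 in TBR1/PPP1R17 cells. EBF2 had 2.56 in IRX cells from D22 to D24, against -1.73 in DLX cells and -1.37 in TBR1/PPP1R17 cells. EBF3 had 2.65 in IRX cells and -0.85 in TBR1/PPP1R17 cells from D22 to D24. From D24 to D26 it had 0.42 in IRX cells, -1.26 in DLX cells and -0.62 in TBR1/PPP1R17 cells.

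ONECUT1 had a log2 ratio of 2.08 in IRX cells from D22 to D24, -1.48 in DLX cells and -0.59 in TBR1/PPP1R17 cells. ONECUT2 had 1.97 in IRX cells and -0.78 in TBR1/PPP1R17 cells. ONECUT3 had 3.99 in DLX cells, from 3 to 14 UMIs, and -0.83 in TBR1/PPP1R17 cells.

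Some of these intervals took in 0 under an alternative. EBF3 in IRX cells from D24 to D26 had 0.32 (-0.04 to 0.69) without marked doublets, 0.22 (-0.12 to 0.58) with the mean over cells and 0.16 (-0.18 to 0.51) relative to the median gene. With groups chosen in cells thinned to 1500 UMIs its interval stayed above 0 in 1 of 11 draws. EBF3 in DLX cells from D24 to D26 had -1.21 (-2.44 to 0.16) with 5 UMIs for a group, and its interval stayed below 0 in 6 of 11 draws. EBF2 in DLX cells from D22 to D24 had -0.95 (-2.93 to 0.57) without marked doublets, -1.72 (-4.83 to 0.28) with 5 UMIs for a group and -0.85 (-3.18 to 0.79) in DLX cells that were not GNRH1-high, and its interval stayed below 0 in 3 of 11 draws. EBF1 in DLX cells from D22 to D24 stayed above 0 in 9 of 11 draws, with 0.75 (-0.11 to 1.57) in 1 of the others. In IRX cells from D22 to D24 the 11 draws gave log2 ratios below those printed above, with intervals above 0. They were 1.95 to 2.52 for EBF1, 1.69 to 2.30 for EBF2, 1.85 to 2.35 for EBF3, 1.43 to 1.89 for ONECUT1 and 1.13 to 1.81 for ONECUT2.

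The ratio of IRX to TBR1/PPP1R17 cells changed sign with the day. EBF1 went from -2.08 at D22 to 1.41 at D24 and 3.20 at D26. EBF3 went from -1.70 to 1.82 and 2.91, ONECUT1 from -1.43 to 1.26 and 0.92, and ONECUT2 from -2.55 at D22 to 1.30 at D26. At D22, 38.7% of IRX cells were dividing. Precursors were 12.3%, 16.4% and 11.0% of IRX cells at D22, D24 and D26, against 30.9%, 1.13% and 0.0273% of TBR1/PPP1R17 cells. The part of these shares in these ratios was not tested.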

How the results depend on the processing

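Each condition was 1 library, so depth and cell number limit what the intervals cover, and the spread between cultures is unknown. No paired analysis was possible because each group had 1 sample. Over the alternatives, each with 1 draw where cells were thinned, 943 ratios of single genes were recomputed: 847 stayed within the interval of the reported value, 96 did not, and 0 of those past 2-fold changed sign. Leaving out marked doublets, the repeated draws, and the thinning to 5000 UMIs for genes found together with its second draw, were chosen after seeing the data.

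Counts of 2-fold members that moved by over 1.5 times were these, and the cause was not tested. With a stricter filter on cells, 0 members were higher from D0 to D5 dSMADi in place of 1. With the mean over cells, 3 were higher under XAV939 at D10 in place of 6, 1 was higher in IRX cells at D22 in place of 0, and 1, EBF4, was lower in STMN2-high cells in place of 0. With median-of-ratios scaling, 2 were lower from D24 to D26 in place of 1. With DLX cells that were not GNRH1-high, 2 were higher in TBR1/PPP1R17 cells at D24 in place of 6. With groups chosen in cells thinned to 1500 UMIs the counts depended on the draw: over 11 draws, 2 to 4 were lower in GNRH1-high cells at D24 (4 without thinning) and 2 to 4 higher in IRX cells at D24 (4 without thinning), and EBF3, past 2-fold without thinning, changed sign in GNRH1-high cells at D24. The draws also gave 0 to 1 higher in GNRH1-high cells at D26, 0 to 1 higher in IRX cells at D22 and 0 to 1 lower in precursors at D22, each 0 without thinning. With 5 UMIs for a group, 1 was higher in GNRH1-high cells at D26, EBF3, and 1 in IRX cells at D22, EBF2, in place of 0 each. With GNRH1 at or above 10000 CPM, 1 was lower in GNRH1-high cells at D26 in place of 0. A stricter filter left 38 STMN2-high cells at D10 XAV939 and 5 UMIs left 39 IRX cells at D24, too few for a ratio.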
